A study of Mus musculus with 2 samples.

Results

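The genes described here are collagen genes, genes of their close partners in the extracellular matrix of liver, and Acta2. They include the fibrillar collagen genes Col1a1, Col1a2, Col3a1 and Col5a2 and the basement membrane collagen genes Col4a1 and Col4a2. The others are the microfibrillar collagen gene Col6a3, the matrix protein genes Sparc and Pcolce, and Acta2, which encodes smooth muscle actin, a protein inside the cell. All were taken as the array probes that carry a RefSeq accession of 1 of these 10 genes. Probes were found for 9 of the 10 among 20284 named genes, on 10 of 55681 probes, and Col6a3 had no matched probe. The signal was well above background in all 4 RNA pools for 8 genes, and Col5a2 was well above background in none, at normalized log2 signals between 5.90 and 6.16.

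The samples were 4 pools of liver total RNA from mice: CREBH KO (null) mice fasted for 24 h, CREBH KO mice with free access to food, wild-type (WT) mice fasted for 24 h and WT mice with free access to food, all on the C57B6J background. CREBH, encoded by Creb3l3, is a transcription factor that is held in a membrane of hepatocytes until it is cleaved. Each feeding state was measured on 1 array, with KO RNA in the Cy5 dye and WT RNA in the Cy3 dye, so genotype and dye cannot be told apart on an array, and feeding state and array cannot be told apart across arrays. How many mice entered a pool, their age and their sex are not given in the sources used here, and the labels call the KO mice null without naming the allele or a tissue-specific driver. Each group was 1 pool with no replicate. An additive fit of genotype and feeding state would have only 1 residual degree of freedom and was not run, so differences are described by their size in these 4 pools, with no test.

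Collagen chains are wound into triple helices inside the cell, secreted and assembled outside it, as fibrils in the case of collagens I, III and V and as the sheet of the basement membrane in the case of collagen IV. In liver most fibrillar collagen is made by hepatic stellate cells and portal fibroblasts. Stellate cells store retinoid when quiescent, and on injury they become contractile myofibroblasts that make collagen and smooth muscle actin. Sinusoidal endothelial cells make basement membrane collagen as well.

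The targeted gene was lower in KO liver on both arrays, though on the fed array its log2 ratio of KO over WT turned to 0.31 when centred on the median of all spots in place of loess. Creb3l3 had normalized log2 signals of 12.95 in the KO fasted pool, 13.12 in the KO fed pool, 15.03 in the WT fasted pool and 14.00 in the WT fed pool, a log2 ratio of KO over WT of -2.07 fasted and -0.88 fed. Whether its probe lies inside the deleted part is not known here, so a remaining signal does not check the deletion. Between 39.9% and 45.9% of gene spots were well above background in a channel, none was saturated, and all 12 hepatocyte markers were measured in all pools.

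The regions just upstream of the annotated starts are shown for 4 of the genes that were lower in the fasted pools, since promoter elements are known for this kind of gene: the CCAAT box of collagen I promoters and the CArG boxes of the smooth muscle actin promoter, which bind serum response factor. RefSeq promoters on GRCm38.p6 were given for 8 of the 10 genes. Each sequence below is 150 bases long, ends at the base before the start, runs 5′ to 3′ on the gene's strand and has motif matches in capitals.
Acta2, chr19:34255374-34255523, minus strand: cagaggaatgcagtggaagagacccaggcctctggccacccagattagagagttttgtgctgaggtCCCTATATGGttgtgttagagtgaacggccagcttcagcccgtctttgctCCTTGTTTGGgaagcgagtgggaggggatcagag
Col1a2, chr6:4505468-4505617, plus strand: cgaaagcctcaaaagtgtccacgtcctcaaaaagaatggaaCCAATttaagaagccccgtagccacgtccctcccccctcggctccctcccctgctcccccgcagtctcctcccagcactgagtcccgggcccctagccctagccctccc
Col3a1, chr1:45311388-45311537, plus strand: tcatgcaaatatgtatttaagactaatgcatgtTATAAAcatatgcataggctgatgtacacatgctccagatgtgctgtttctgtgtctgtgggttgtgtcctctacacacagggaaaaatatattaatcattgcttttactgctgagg
Pcolce, chr5:137611405-137611554, minus strand: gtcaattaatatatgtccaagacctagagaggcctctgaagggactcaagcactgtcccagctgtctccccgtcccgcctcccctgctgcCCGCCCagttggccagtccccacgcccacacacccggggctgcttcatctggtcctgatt

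Motifs were searched on both strands of the 250 bases before each start. The capitals in the Acta2 sequence are 2 matches to the CArG box with 1 inner base off its consensus, 84 and 34 bases before the start, a form found in 7.24% of 32851 promoters of this length. The exact CArG consensus was in 1.47% of promoters and in none of the 8 given here. CCAAT stood 109 bases before the Col1a2 start, where GGGCGG also stood 205 and 188 bases before it, beyond the stretch shown, as did a CArG box with 1 inner base off 228 bases before it. CCAAT was in 33.8% of promoters and GGGCGG in 32.7%. TATAAA, in 12.4% of promoters, stood 117 bases before the Col3a1 start, and GGGCGG on the opposite strand 60 bases before that of Pcolce. Col4a1 and Col4a2 lie head to head on opposite strands, and their annotated starts overlap by 22 bases, so each gene's upstream bases lie in the other gene. CCAAT stood 145 bases before the Col4a1 start and 32 bases before the Col4a2 start. A match describes the letters in the window and is not a measured binding site.

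Fasting went with lower signals of the 3 measured fibrillar collagen genes, Pcolce and Acta2 in both genotypes, and not of the collagen IV genes. Col3a1 was 3.21-fold lower in fasted than in fed KO liver and 3.19-fold lower in WT liver, and Col1a1 was 2.67-fold lower in KO liver and 2.47-fold lower in WT liver. Of the 8 measured genes 3 were at least 2-fold lower in fasted KO liver (Col3a1, Col1a1 and Pcolce), against 2.1% of 11785 measured genes, and 2 in WT liver (Col3a1 and Col1a1), against 1.92% of 11441 genes. None was at least 2-fold higher, against 2.59% of genes in KO and 2.36% in WT, so that 4.68% of genes in KO and 4.28% in WT were 2-fold apart in either direction. The median log2 ratio of fasted over fed was -0.86 in KO and -0.85 in WT, where all measured genes had a median of 0.01 in each. A lower signal in bulk liver RNA can be fewer cells of a type or less RNA per cell, and the 2 cannot be told apart. The KO and WT comparisons share the same pair of arrays and are not independent of each other.

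**Figure D1:**
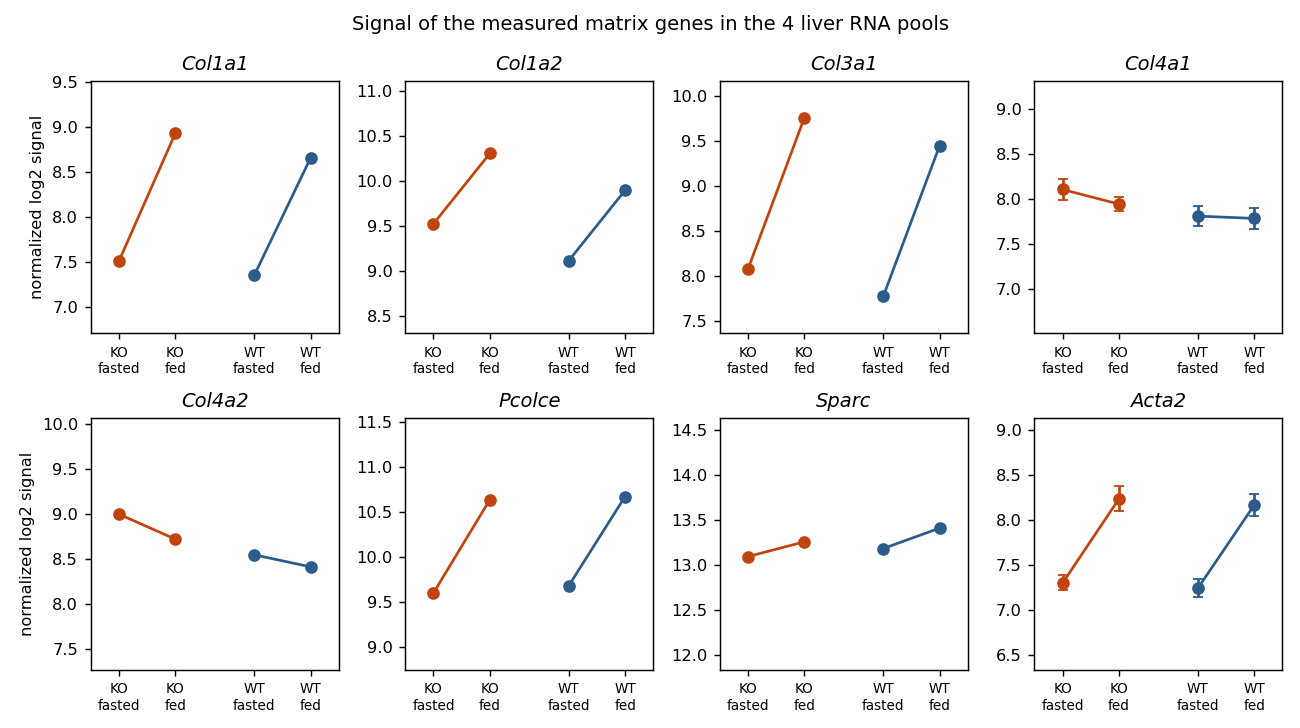
Normalized log2 signal (y axis) of the 8 measured genes in each of the 4 pools (x axis; KO orange, WT blue), with axes of equal span. Bars on Col4a1 and Acta2 are the SD over the spots of the probe. Col1a1, Col1a2, Col3a1, Pcolce and Acta2 lie lower in the fasted pool of each genotype, while Col4a1 and Col4a2 do not.

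Col3a1, which encodes the chain of collagen III, the fibrillar collagen of soft tissues, had normalized log2 signals of 8.08 in the KO fasted pool, 9.77 in the KO fed pool, 7.78 in the WT fasted pool and 9.46 in the WT fed pool. Both fasted pools lay below both fed pools. The log2 ratio of fasted over fed was -1.68 in KO, rank 56 from the lowest of 11785 genes, and -1.67 in WT, rank 52 of 11441. Before any normalization, the Col3a1 spot signal over local background was 369 fluorescence units in the KO fasted pool against 1049 in the KO fed pool, and 129 in the WT fasted pool against 307 in the WT fed pool, although the fasted array was the brighter one for most genes. Such raw signals fell less for Col1a2, with 1222 fasted against 1587 fed in KO and 411.5 against 432 in WT. Pcolce had 1304.5 fasted against 2073 fed in KO and 634 against 779.5 in WT.

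Col1a1 and Col1a2 encode the alpha 1 and alpha 2 chains of collagen I, which join in 1 triple helix. Col1a1 had log2 signals of 7.51 in the KO fasted pool, 8.93 in the KO fed pool, 7.35 in the WT fasted pool and 8.66 in the WT fed pool, a log2 ratio of fasted over fed of -1.42 in KO and -1.31 in WT, rank 100 from the lowest in KO and 118 in WT. Col1a2 had 9.52 in the KO fasted pool, 10.30 in the KO fed pool, 9.11 in the WT fasted pool and 9.89 in the WT fed pool, a log2 ratio of -0.78 in each genotype, or 1.72-fold lower. The fasted pools lay below the fed pools for both chains, and the ratio of Col1a2 was the smaller of the pair in each genotype. Each of the 3 fibrillar genes was measured by 1 probe in 1 spot, so no spread between spots can be given for them. Over 151 probes of similar brightness printed 10 times, the median SD between spots of a log2 ratio of fasted over fed was 0.08 in KO and 0.08 in WT, which covers spotting and scanning only.

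Pcolce encodes procollagen C-endopeptidase enhancer, a secreted protein that speeds the cleavage of procollagen. Its log2 signals were 9.60 in the KO fasted pool, 10.64 in the KO fed pool, 9.68 in the WT fasted pool and 10.67 in the WT fed pool. The log2 ratio of fasted over fed was -1.04 in KO and -0.99 in WT, just past 2-fold in the first and just under it in the second, a difference of 0.04 that is smaller than the spread between spots of a probe. Acta2, the marker actin of myofibroblasts and vascular smooth muscle, had 7.30 in the KO fasted pool, 8.24 in the KO fed pool, 7.24 in the WT fasted pool and 8.17 in the WT fed pool. Its probe was printed 10 times, and the ratio of fasted over fed was -0.93 ± 0.08 in KO and -0.92 ± 0.08 in WT (SD over 10 spots). The spots ran between -1.08 and -0.86 in KO and between -1.08 and -0.81 in WT, so all 10 were below 0 in each genotype. The probe of the closely related skeletal actin Acta1 was well above background in no pool, and that of the enteric actin Actg2 in 1 pool, KO fasted.

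The collagen IV genes, which encode the main chains of the basement membrane, differed little between feeding states. Col4a1 had log2 signals of 8.11 in the KO fasted pool, 7.94 in the KO fed pool, 7.81 in the WT fasted pool and 7.79 in the WT fed pool. Col4a2 had 9.0 in the KO fasted pool, 8.72 in the KO fed pool, 8.55 in the WT fasted pool and 8.41 in the WT fed pool. The log2 ratio of fasted over fed was 0.16 in KO and 0.03 in WT for Col4a1, and 0.28 in KO and 0.13 in WT for Col4a2. For Col4a1 the 9 spots read on both arrays ran between 0.00 and 0.36 in KO and between -0.12 and 0.15 in WT, so the WT spots lay on both sides of 0. Centred on the measured genes in place of loess, the Col4a1 ratio in WT was -0.03. Col4a1 in KO and Col4a2 in both genotypes stayed above 0 under all 10 alternatives. Before any normalization, on the brighter fasted array, the Col4a2 signal over background was 810.5 fasted against 461 fed in KO and 261 against 131 in WT. For Col4a1 it was 378.75 against 235.1 in KO and 133.65 against 73.8 in WT.

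Sparc encodes osteonectin, a collagen-binding glycoprotein. Its brighter probe had log2 signals of 13.09 in the KO fasted pool, 13.25 in the KO fed pool, 13.18 in the WT fasted pool and 13.41 in the WT fed pool, and the dimmer probe 7.41 in the KO fasted pool, 7.87 in the KO fed pool, 7.24 in the WT fasted pool and 7.93 in the WT fed pool. Fasted over fed, the brighter probe gave -0.16 in KO and -0.23 in WT, and the dimmer one -0.45 in KO and -0.69 in WT. Both probes had lower fasted than fed signals in each genotype, but they disagree in size, and without normalization between arrays the brighter one turned to 0.45 in KO and 0.38 in WT, where the median of all genes was 0.45 in KO and 0.46 in WT. In that setting the 5 genes described as lower stayed below 0, as they did in every one of the 10 alternatives run for each genotype. Col3a1 was at least 2-fold lower in all 10 in both genotypes, and Col1a1 in 9 of 10 in both.

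**Figure D2:**
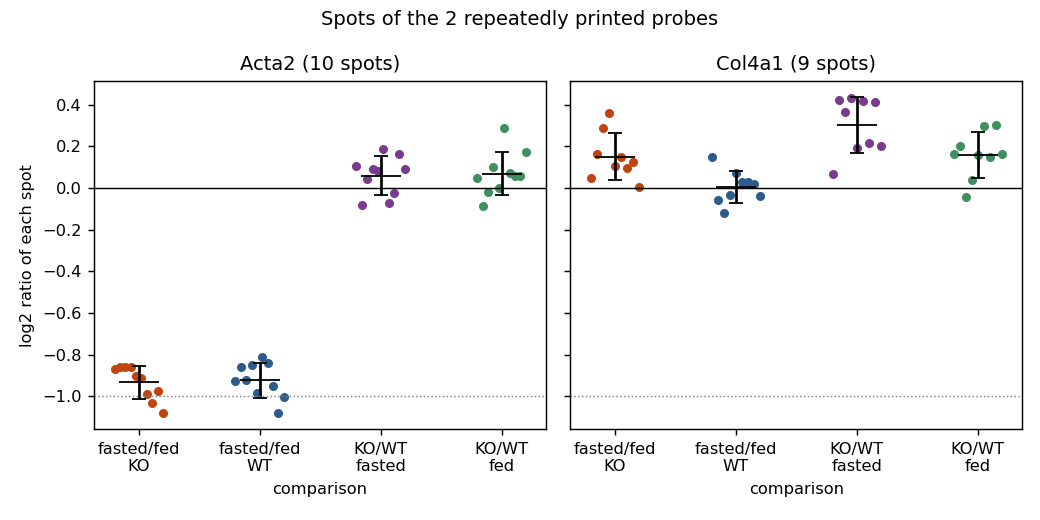
Log2 ratio of each spot (y axis) of the probes for Acta2 and Col4a1, the only genes here whose probe was printed many times, in 4 comparisons (x axis), with the mean and SD over spots as bars and 2-fold lower as the dotted line. All Acta2 spots are between -1.08 and -0.81 for fasted over fed, and those of Col4a1 are between -0.12 and 0.36.

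KO over WT differences of these genes were small. None of the 8 was 2-fold apart in either feeding state, where 0.791% of 12262 genes were so fasted (0.359% higher, 0.432% lower) and 0.554% of 11377 fed (0.158% higher, 0.396% lower). The 5 measured collagen genes had higher signals in KO than in WT liver in both states and under all 10 alternatives, by log2 ratios of 0.16 to 0.45 fasted and 0.16 to 0.41 fed. Under an alternative the ratio was as low as 0.02 for Col1a1 fasted and 0.01 for Col4a1 fed. Since KO was Cy5 on both arrays, a dye effect of a probe would repeat on both, and its part in these ratios was not tested.

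Col1a2 had the same log2 ratio of KO over WT, 0.41, in the fasted and the fed state, rank 446 from the highest of 12262 genes fasted and rank 357 of 11377 fed. Col4a2 was at 0.45 fasted and 0.31 fed, and Col3a1 at 0.30 fasted and 0.31 fed. Col4a1 was at 0.30 fasted and 0.16 fed, and Col1a1 at 0.16 fasted and 0.27 fed. These exceed the median SD between spots of about 0.08, but the error that the scanner software gave for 1 spot's log2 ratio of a measured probe was about 0.21, and Col1a1 fasted and Col4a1 fed lay within it. The spots of Col4a1 gave 0.30 ± 0.13 fasted and 0.16 ± 0.11 fed (SD over 9 spots). Its ratio is a mean over spots, so the error for 1 spot is not the error of that mean. The fed spots ran between -0.05 and 0.30.

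Pcolce, Sparc and Acta2 did not share the higher KO signal. Pcolce was at -0.08 fasted and -0.04 fed, and the brighter probe of Sparc at -0.09 fasted and -0.15 fed, and these signs turned positive when arrays were centred on the median of all spots or of the measured genes. The dimmer Sparc probe was at 0.17 fasted and -0.06 fed, and the mean of both probes was above 0 fasted. Acta2 was at 0.06 ± 0.09 fasted and 0.07 ± 0.10 fed (SD over 10 spots), with spots on both sides of 0, and turned negative when arrays were centred on the measured genes. All 3 lay within the scanner software's error in both states. The median log2 ratio over the 8 genes was 0.23 fasted and 0.22 fed, against 0.01 over all measured genes in each.

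**Figure D3:**
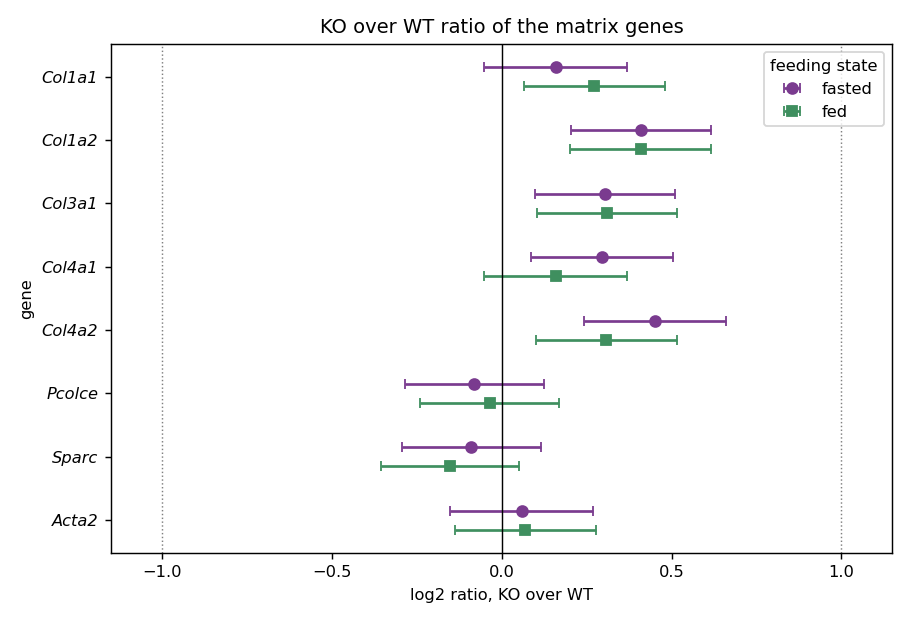
Log2 ratio of KO over WT (x axis) of the 8 measured genes (y axis), fasted (circles) and fed (squares), with the scanner software's error of the ratio as bars and 2-fold as dotted lines. The 5 collagen genes lie between 0.16 and 0.45, and Pcolce, Sparc and Acta2 between -0.15 and 0.07.

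The genotype ratio of these genes was nearly the same in the fasted and the fed state. The fasted minus the fed log2 ratio of KO over WT, in which a constant dye effect of a probe cancels, ran between -0.11 for Col1a1 and 0.14 for Col4a2, with a median of -0.00. None was 2-fold apart, against 1.37% of 11290 genes, 0.771% higher and 0.602% lower. The median SD between spots of this difference was 0.10 over probes printed 10 times, and Col1a2 at 0.00, Col3a1 at -0.01 and Acta2 at -0.01 changed sign with the processing, as did Sparc and Col4a2. The order of the 4 pools was the same for Col1a1, Col1a2, Col3a1 and Acta2, KO fed highest, then WT fed, KO fasted and WT fasted, with the KO and WT values of Acta2 closer than its spot SD of 0.08 to 0.14. For Pcolce the WT pool lay above the KO pool in each state, by 0.08 fasted and 0.04 fed.

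Across the other collagens, the lower fasted signal was clearest in a few fibrillar chains. Most other measured chains outside the basement membrane group were below 0 by less. Of 7 other fibrillar collagen genes with a probe, 4 were measured in KO and 3 in WT, and all of these were below 0 for fasted over fed, with medians of -0.51 in KO and -0.55 in WT. Among them the dim Col24a1, measured in KO only, was at -0.03. Col27a1, a minor fibrillar chain, was at -1.11 in KO and -0.55 in WT, and Col5a3, a chain of collagen V, at -0.84 in KO and -1.04 in WT. Among 6 other basement membrane collagens 3 were measured in KO and 2 in WT, with medians of 0.02 in KO and -0.07 in WT and none at 2-fold. Col4a6 was at 0.02 in KO and -0.12 in WT. Of 23 further collagen genes with a probe 7 were measured, with 6 of 7 below 0 in each genotype. Their medians were -0.21 in KO and -0.14 in WT, with none at 2-fold. Among them the probes of Col14a1 disagreed in direction. Its brighter probe was at -0.04 in KO and -0.34 in WT, and its dimmer one at 0.54 in KO and 0.24 in WT. Col6a1, a chain of the same collagen VI as Col6a3, was at -0.53 in KO and -0.36 in WT. The last group's medians turned to 0.14 in KO and 0.17 in WT without normalization between arrays, still under the all-gene medians of 0.45 in KO and 0.46 in WT. Its WT median also turned above 0 without the filter on dim probes. The medians of the other fibrillar chains stayed below 0 under all 10 alternatives. Most remaining collagen genes were not well above background. KO over WT, none of these collagens was 2-fold apart, and Col4a5, measured in the fasted pools only, was at 0.14 and Col9a2 at -0.29 fasted and -0.10 fed. Col6a1 was at 0.13 fasted and 0.30 fed, above 0 under all 10 alternatives. Of the 7 measured genes in the group of Col6a1 and Col9a2, 3 were above 0 and 4 below 0 in each state.

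Collagen folding, processing and crosslinking genes were mostly slightly lower in the fasted pools, with a median of -0.26 over 23 genes in KO and -0.15 over 22 in WT. Below 0 were 17 of 23 in KO and 15 of 22 in WT, and without normalization between arrays the medians turned to 0.11 in KO and 0.26 in WT, still under the all-gene medians given above. Serpinh1, which encodes the collagen-specific chaperone HSP47, was at least 2-fold lower in both genotypes, at 7.51 in the KO fasted pool, 8.68 in the KO fed pool, 7.46 in the WT fasted pool and 8.52 in the WT fed pool. Its log2 ratio of fasted over fed was -1.17 in KO and -1.06 in WT, so it stood between Col1a1 and Pcolce in size. P4ha2, a subunit of collagen prolyl 4-hydroxylase, was at -0.82 in KO and -0.65 in WT, and the prolyl isomerase gene Ppib at -0.74 in KO and -0.86 in WT, and both are named after their values were seen. Lox, the main collagen crosslinking oxidase, was well above background in no pool.

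Contractile genes showed a split. Of 13 such genes besides Acta2, 7 were measured, and their median log2 ratio of fasted over fed was -0.49 in KO and -0.52 in WT, below 0 under all 10 alternatives. Tagln, which encodes the actin-binding protein SM22, was at 8.90 in the KO fasted pool, 10.18 in the KO fed pool, 8.82 in the WT fasted pool and 10.10 in the WT fed pool, a ratio of -1.28 in each genotype. Myl9, a regulatory myosin light chain, was at -0.90 in KO and -1.23 in WT, and Cald1, which encodes caldesmon, at -1.03 in KO and -0.96 in WT. Tpm1 and Tpm2, named after their values were seen, were close to 0 by their brightest probes, Tpm1 at -0.16 in KO and -0.13 in WT and Tpm2 at 0.16 in KO and 0.11 in WT. The 5 measured probes of Tpm1 differed, between -0.16 and 0.26 in KO and between -0.44 and -0.03 in WT. Smooth muscle myosin, Myh11, was well above background in no pool.

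Other matrix genes had list medians near 0 for fasted over fed, with single genes on either side. Laminins and their partners had medians of 0.10 in KO and -0.01 in WT over 14 genes each. Lamb3, a laminin chain of epithelial basement membranes, stood apart, at 7.26 in the KO fasted pool, 6.93 in the KO fed pool, 8.72 in the WT fasted pool and 6.90 in the WT fed pool. The WT fasted pool alone was high, and the log2 ratio of KO over WT was -1.46 fasted and 0.03 fed. Glycoproteins and proteoglycans had medians of 0.08 over 20 genes in KO and 0.01 over 19 in WT. Among genes lower in the fasted pools of both genotypes, named after their values were seen, were the nidogen gene Nid2 at -0.54 in KO and -0.35 in WT, the laminin chain Lama3 at -0.51 in KO and -0.38 in WT, and Efemp2, a fibulin gene, at -0.45 in KO and -0.48 in WT. Other genes were higher in both, also named after their values were seen. They include Nid1 at 0.66 in KO and 0.29 in WT, and Lum at 0.54 in KO and 0.38 in WT. Ecm1 was at 0.47 in KO and 0.34 in WT, and Dcn at 0.22 in KO and 0.27 in WT. Above 0 were 8 of 14 laminins and partners in KO and 7 of 14 in WT. Of glycoproteins and proteoglycans, 13 of 20 were above 0 in KO and 10 of 19 in WT. Sparcl1, a relative of Sparc, was at 1.01 in KO and 0.69 in WT. Smoc2, another SPARC-related gene, was at 9.25 in the KO fasted pool, 8.80 in the KO fed pool, 8.05 in the WT fasted pool and 8.72 in the WT fed pool, a ratio of KO over WT of 1.20 fasted and 0.08 fed. Here the WT fasted pool was the low one.

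Degradation genes and growth factor genes had fasted over fed medians near 0. Matrix proteases and their inhibitors had medians of 0.12 over 12 genes in KO and -0.03 over 11 in WT, with no gene at 2-fold. Timp3, a metalloprotease inhibitor, was at 0.62 in KO and 0.14 in WT, and its log2 ratio of KO over WT was 0.49 fasted and 0.02 fed. Over the degradation list the ratio of KO over WT was above 0 for 10 of 12 genes fasted, with a median of 0.17 that turned to -0.05 when arrays were centred on the measured genes. Fed, 7 of 11 were above 0, with a median of 0.02. The fasted minus the fed ratio was above 0 for 9 of 10 genes, with a median of 0.20 that stayed above 0 under all 10 alternatives. All measured genes had a median of -0.01. This was not particular to the list, since Kupffer cell markers were above 0 for 11 of 11 genes, with a median of 0.42. Sinusoidal endothelial markers were above 0 for 11 of 15, with a median of 0.15. Collagen folding, processing and crosslinking genes were above 0 for only 6 of 22, with a median of -0.13. The TGF-beta, PDGF and matrix receptor genes had medians of -0.09 over 27 genes in KO and 0.01 over 26 in WT. Ccn2, which encodes connective tissue growth factor, ran opposite to the collagens, at 10.18 in the KO fasted pool, 7.91 in the KO fed pool, 9.82 in the WT fasted pool and 8.12 in the WT fed pool. Its log2 ratio of fasted over fed was 2.27 in KO and 1.70 in WT.

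**Figure D4:**
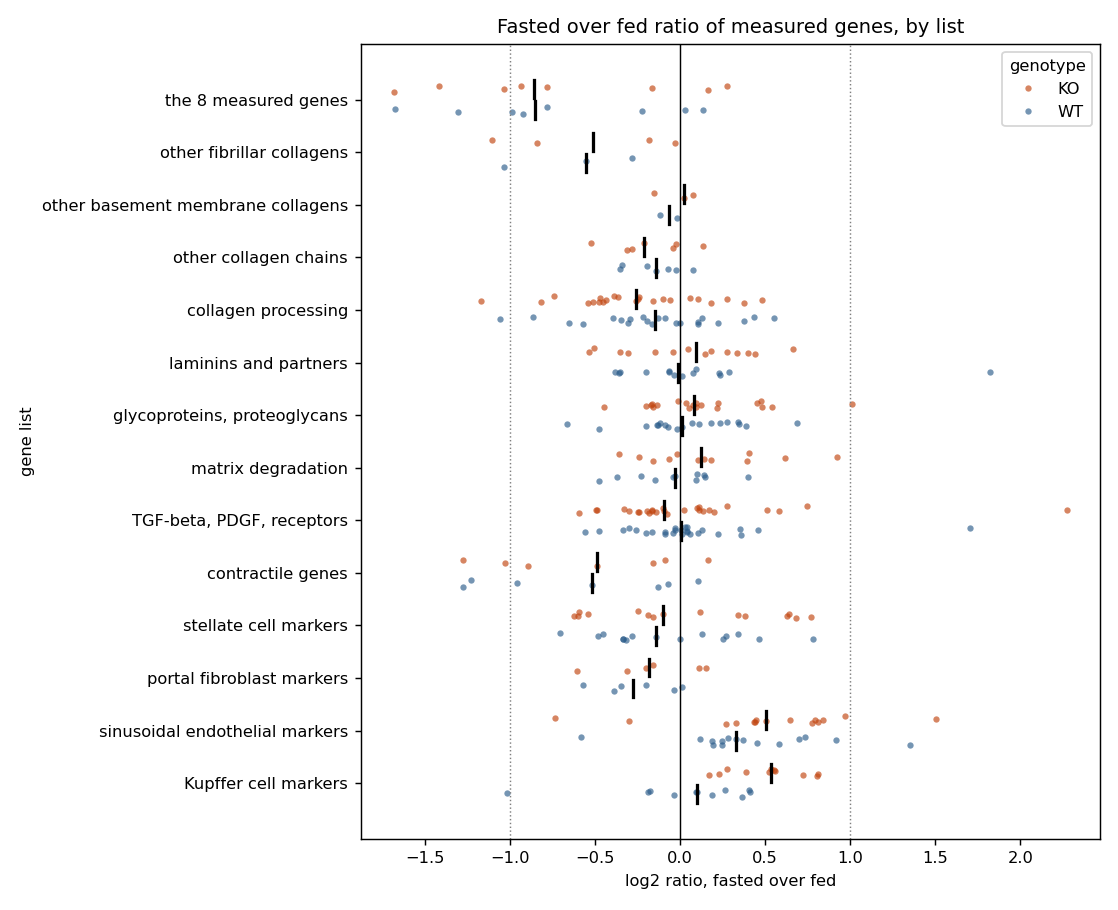
Log2 ratio of fasted over fed (x axis) of each measured gene, in KO (orange) and WT (blue), by gene list (y axis), with the median of each list as a black bar and 2-fold as dotted lines. The 8 measured genes have medians of -0.86 in KO and -0.85 in WT, the contractile genes -0.49 in KO and -0.52 in WT, and the stellate cell markers -0.10 in KO and -0.14 in WT.

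Markers of the cells that make these proteins were followed beside them. Of 17 stellate cell markers 15 were measured in all pools, Des in the fasted pools only and Gfap in none. Fasted over fed, 7 of 15 were above 0 in each genotype, the median was -0.10 in KO and -0.14 in WT, and none was at 2-fold. These medians turned above 0 without the filter on dim probes and without normalization between arrays. Their mean log2 signal was 8.29 in the KO fasted pool, 8.25 in the KO fed pool, 8.09 in the WT fasted pool and 8.14 in the WT fed pool. The markers differed among themselves. Above 0 in both genotypes were Colec11, at 0.77 in KO and 0.78 in WT, Rgs5, at 0.68 in KO and 0.47 in WT, Lhx2, at 0.64 in KO and 0.25 in WT, and Colec10, at 0.63 in KO and 0.27 in WT, and also Hand2 and Hgf. Below 0 in both were Ngfr at -0.63 in KO and -0.45 in WT, and Pdgfrb, a PDGF receptor of these cells, at -0.59 in KO and -0.33 in WT. Lrat, the retinol-esterifying enzyme of stellate cells, was at -0.16 in KO and -0.33 in WT, and Reln, which encodes reelin, at -0.19 in KO and -0.32 in WT. These genes were chosen after their values were seen. KO over WT, the marker median was 0.14 over 16 genes fasted and 0.06 over 15 fed, with 13 above 0 fasted and 11 fed. The fed median turned to -0.13 when arrays were centred on the measured genes, while the fasted one stayed above 0 under all 10 alternatives. Steap4, a metalloreductase gene, was at 0.43 fasted and 0.31 fed.

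Markers of other cell types moved in their own ways. The 6 measured of 9 portal fibroblast markers had medians of -0.18 in KO and -0.28 in WT for fasted over fed (above 0 without normalization between arrays), and mean log2 signals of 7.26 in the KO fasted pool, 7.43 in the KO fed pool, 7.12 in the WT fasted pool and 7.38 in the WT fed pool. The defining gene Eln was well above background in no pool, and Thy1 was at 0.11 in KO and -0.57 in WT. Sinusoidal endothelial markers had higher fasted signals, with 13 of 15 above 0 and a median of 0.50 in KO, and 14 of 15 above 0 and a median of 0.33 in WT, and both medians were above 0 under all 10 alternatives. Lyve1, a hyaluronan receptor gene, was at 1.51 in KO and 1.35 in WT. Kupffer cell markers had medians of 0.53 over 11 genes in KO, all above 0, and 0.10 in WT, with 7 of 11 above 0. KO over WT, their medians were 0.13 fasted and -0.34 fed, the fed one turning to 0.52 with all spots' median as the centre. The part of any of these cell types in the collagen differences was not tested.

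The genes closest to the median profile were sought among measured genes outside the members that varied enough over the pools, although Col4a1, Col4a2 and Sparc depart from the profile. The profile, taken as the median over the 8 genes of the log2 signal less each gene's own mean, was -0.31 in the KO fasted pool, 0.49 in the KO fed pool, -0.48 in the WT fasted pool and 0.31 in the WT fed pool. A gene was compared if the SD of its 4 values was at least 0.5 times that of the profile. This left 3355 genes, where 11290 were measured in all pools. Over the 4 pools, the 5 nearest of 3355 genes compared were Glb1, which encodes lysosomal beta-galactosidase, at a root mean square distance of 0.024 on the log2 scale, Cdca8 at 0.027, Gpat2 at 0.030, Ppp1r14a at 0.033 and Dcaf12l2 at 0.035. With 4 values per gene such a likeness is a description of these pools. The log2 ratio of fasted over fed was -0.85 in KO and -0.84 in WT for Glb1, and -0.88 in KO and -0.77 in WT for Ppp1r14a, which encodes an inhibitor of myosin phosphatase.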

How the data were processed

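Liver RNA of 4 pools was measured on 2 Agilent 2-colour arrays, both on 1 slide and read in 1 scan. The authors deposited median spot and background intensity per channel, not normalized, from Agilent Feature Extraction 10.10.1.1 with an array grid on mm9, per the file headers. The deposited processed intensity was background-subtracted, detrended and dye-normalized, and the deposited log10 ratio of Cy5 over Cy3, its error and its p-value are the scanner software's for 1 spot, per the file headers. The p-value was not used. The authors' value table holds log2 ratios within 0.005 of these, with medians of 0.00. Whether it was centred further is not known.

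Signals were corrected with normexp (offset 50, which draws ratios of dim genes towards 0), normalized by loess within and Aquantile between arrays in limma 3.58.1 under R 4.3.3. Outlier spots, 216 on the fed and 197 on the fasted array, went through these steps and were left out when spots were averaged per probe. Medians replaced the planned means, which the files used here do not hold. Tables and figures were made in Python 3.11.15 with pandas 2.3.3 and matplotlib 3.10.9. Loess was tested on simulated data. Accessions named 25934 of 26430 probes with NM accessions through the GRCm38.p6 table, whose coordinates were used for RefSeq promoters only. A gene was its probe of highest mean intensity, measured where at least 50% of its spots were well above background in each channel compared. The scanner's log10 errors were turned to log2. The rule of size was 2-fold, and the number of arrays limits the precision.

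Members and gene lists were chosen with earlier results of these data known. Every member is named, and of each other list up to 4 genes at least 2-fold apart in a genotype or fasting comparison, or otherwise the 1 or 2 with the largest ratio of KO over WT. Other named genes are marked as chosen after their values were seen. Some genes that this rule names are not reported here.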

Additional observations from a re-analysis of the deposited data

Results flagged for a closer look

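Of 37 genes examined, which are the measured members and the named genes of the other lists, 6 had effects that ran in opposite directions in 2 groups, each larger than the 95th percentile of the SD between spots. None of the 6 was a member, and none of the differences was tested, since each group was 1 pool.

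Col27a1, a minor fibrillar collagen, had a log2 ratio of KO over WT of -0.35 fasted and 0.21 fed, a difference of -0.55. Smoc2, a SPARC-related matrix gene, had a log2 ratio of fasted over fed of 0.45 in KO and -0.66 in WT, a difference of 1.11. Ccn2, which encodes connective tissue growth factor, had a ratio of KO over WT of 0.36 fasted and -0.21 fed, a difference of 0.57. Thy1, a portal fibroblast marker that lymphocytes and other cells also carry, was at 0.47 fasted and -0.21 fed, a difference of 0.68. Marco, a scavenger receptor gene of Kupffer cells, had a ratio of KO over WT of 0.28 fasted and -0.91 fed, and a ratio of fasted over fed of 0.17 in KO and -1.02 in WT, a difference of 1.19 either way. Alas2, an enzyme of red cell heme synthesis, had a ratio of KO over WT of -0.35 fasted and 0.25 fed, a difference of -0.61. With all spots' median as the centre, the ratios of KO over WT of Ccn2, Thy1 and Marco fed and of Alas2 fasted turned positive, and centred on the measured genes that of Col27a1 fed turned negative.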

How the results depend on the processing

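Each group was 1 pool, with no replicate to leave out. A paired fit of KO against WT over the 2 arrays, which would take the feeding states as replicates, would have 1 residual degree of freedom and was not run. The members' medians kept their sign under the alternatives for KO over WT and for fasted over fed, while the median of the difference of ratios, -0.00, was up to 0.02 above 0 in 5 of them. Centred on the median of all spots in place of loess, which put all genes' median ratio of KO over WT at 0.57 fasted and 0.78 fed, against 0.01 in each, the members' median was 0.82 fasted with 2 members 2-fold apart and 1.05 fed with 5, their fasted over fed median was -1.01 in KO and -0.70 in WT, and the difference of ratios was -0.30. There the members stood 0.25 fasted and 0.28 fed above all genes, against 0.21 fasted and 0.20 fed as reported. The fasted over fed medians were -1.03 in KO and -0.97 in WT from scanner-processed signals, -0.95 in KO and -0.93 in WT with an offset of 10, and -0.35 in KO and -0.32 in WT without normalization between arrays. In WT 4 members were 2-fold apart from scanner-processed signals, with an offset of 10 and with no background correction, and without normalization between arrays 1 was in each genotype. Less all genes' median, the members' fasted over fed median ran between -1.05 and -0.79 in KO and between -0.97 and -0.78 in WT. Of the single members' values under an alternative, 300 moved by less than the median SD between spots and 100 by more.

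Counts of all genes 2-fold apart depended more on the processing. For KO over WT fed the 63 genes (18 higher, 45 lower) became 174 from scanner-processed signals, 175 in the authors' deposited table, 97 with an offset of 10, 127 (76 higher) centred on the measured genes and 3111 (3102 higher, 9 lower) centred on all spots. For KO over WT fasted the 97 (44 higher, 53 lower) became 193 from scanner-processed signals, 195 in the authors' deposited table and 956 (940 higher, 16 lower) centred on all spots. For fasted over fed, 552 in KO became 1070 from scanner-processed signals and 1243 (1163 higher, 80 lower) without normalization between arrays, and 490 in WT became 886 from scanner-processed signals and 1151 (1080 higher, 71 lower) without normalization between arrays. The 155 of the difference of ratios became 340 from scanner-processed signals and, in the authors' deposited table, 343. Dim genes such as Col5a2 and most minor collagens are limited by signal over background, with median spot signals of 86 units in the KO fasted, 83 in the KO fed, 29 in the WT fasted and 27 in the WT fed pool over backgrounds of 70, 69, 25 and 24 in that order.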

Other observations

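Red cell, cholangiocyte and lymphocyte markers were measured in the same pools. Of 7 red cell markers 6 were measured, with medians of fasted over fed of 0.14 in KO and 0.36 in WT, and the adult beta globin gene Hbb-bs was at 0.67 in KO and 1.19 in WT while Alas2 was at -1.29 in KO and -0.68 in WT. Of 9 cholangiocyte markers 4 were measured, and Sox9, a transcription factor of bile duct cells, had a log2 ratio of KO over WT of 0.47 fasted and 0.08 fed, with Spp1, which encodes osteopontin, at 0.27 fasted and 0.33 fed. Krt19 was at -0.09 fed and Prom1 at -0.16 fed, and the list median was 0.21 fasted and -0.01 fed. Lymphocyte markers were mostly dim, with 5 of 11 measured fasted and 4 fed, and Cd4 was at -0.63 fasted and -0.27 fed and Cd79b at -0.44 fasted and -0.28 fed, KO over WT. Cd3e at 0.19, Cd3g at 0.15 and Nkg7 at 0.10 were above 0 fasted, and the list median was 0.10 fasted and -0.13 fed. Among the 12 hepatocyte markers, Cps1, the first enzyme of the urea cycle, had a ratio of fasted over fed of 1.12 in KO and 0.87 in WT, and the list medians were 0.08 in KO and 0.01 in WT.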
